A study of Mus musculus with 292 samples.

Results

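Egr1, Egr2, Egr3 and Egr4 make up the early growth response family of zinc finger transcription factors, and their transcripts were measured in the brains of 292 mice. The members were chosen by name: every probe annotated to these 4 genes was taken, which gave 1 probe each, 4 of the 23574 probes in the table and 4 of its 10835 named genes. The mice were an F2 generation, males and females, from C57BL/6J and C3H/HeJ parents crossed in both directions. They ate chow with 4% fat up to an age of 8 weeks, followed by 12 weeks on a Western diet holding 42% fat and 0.15% cholesterol. All were sacrificed at an age of 20 weeks, fasted for 12 hours, and total RNA of the dissected brain was labelled with Cy3. Every array is described as 1 mouse against the same Cy5-labelled pool, with an equal share of RNA from each mouse. The labels give no genotype, sex or cross direction for a single mouse, and no untreated or chow-fed group, so the mice form 1 group and the comparisons open here are between mice.

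Egr genes are immediate early genes: calcium entry, growth factors and the ERK kinase cascade switch them on within minutes, without new protein synthesis. Serum response factor (SRF) on CArG boxes and CREB on cyclic AMP response elements carry much of that signal to the DNA. The proteins bind GC-rich sites through zinc fingers, and the corepressors Nab1 and Nab2 limit their action. In the brain, Egr1 (also called Zif268) is a standard marker of recent neuronal activity and is linked to lasting synaptic plasticity. Egr2 (Krox20) is known for hindbrain patterning and for myelination by Schwann cells, Egr3 for muscle spindle development and activity-dependent transcription, and Egr4 is the least studied member.

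Stretches upstream of 5 of the genes described below are shown first, because they hold the letters of such sites. Windows of 250 bases before annotated start sites were searched on both strands for the CArG box (a run of A and T between CC and GG), for CGTCA (the core of the cyclic AMP response element), for its full palindrome TGACGTCA, which holds CGTCA, and for the Egr site GCGTGGGCG. Egr2 and Egr4 had windows among the RefSeq sequences of build GRCm38.p6 that were used. The Egr2 stretch lies at chr10:67537793-67537822 on the plus strand, upstream of one of 5 annotated start sites, and holds a CArG box followed by CGTCA, whose last base is 51 bases before that start. The Egr4 stretch at chr6:85513590-85513778, on the minus strand, runs to the base before the start site and holds CGTCA at 2 places. Srf, which encodes SRF itself, is shown at chr17:46556163-46556375 (minus strand), Dusp5, which encodes a phosphatase of nuclear ERK, at chr19:53529051-53529144 (plus strand) and Nab1 at chr1:52500449-52500601 (minus strand), because their transcripts followed Egr genes below. Each runs 5′ to 3′, and capitals mark the matched letters.
Egr2: cagtCCATATATGGgcagcgaCGTCAcggg
Egr4: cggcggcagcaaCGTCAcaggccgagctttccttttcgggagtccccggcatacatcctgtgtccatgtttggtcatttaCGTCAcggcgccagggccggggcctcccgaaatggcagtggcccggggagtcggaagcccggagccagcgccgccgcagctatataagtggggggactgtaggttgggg
Srf: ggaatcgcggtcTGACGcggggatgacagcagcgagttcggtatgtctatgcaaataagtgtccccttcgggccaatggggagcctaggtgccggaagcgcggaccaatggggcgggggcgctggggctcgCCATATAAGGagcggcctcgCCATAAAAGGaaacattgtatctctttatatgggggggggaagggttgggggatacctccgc
Dusp5: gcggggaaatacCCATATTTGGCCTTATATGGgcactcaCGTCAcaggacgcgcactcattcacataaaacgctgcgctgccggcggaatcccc
Nab1: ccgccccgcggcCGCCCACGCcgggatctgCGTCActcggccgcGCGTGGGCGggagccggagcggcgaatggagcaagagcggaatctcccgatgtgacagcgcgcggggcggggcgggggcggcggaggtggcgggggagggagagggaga

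Srf and Dusp5 held 2 CArG boxes each and CGTCA once, and Nab1 held the Egr site at 2 places, once on each strand, with CGTCA between them. Over all 27025 genes with a window, 1.62% had a CArG box there, 19.8% had CGTCA, 1.77% had TGACGTCA and 0.622% had GCGTGGGCG. These matches describe letters in a window and are not measured binding.

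Values are log10 ratios of mouse over pool. The labels state neither the base nor the direction. The direction was taken from Eif2s3y, a Y-linked gene, which ranged from -1.89 to 0.385, as low values in part of the mice would give with the mouse on top, and the base from values that stopped at -2 and 2. A ratio to a pool of the same tissue carries no absolute level, so the 4 genes cannot be ranked by abundance and the tissue cannot be checked against its markers. Each mouse was measured once, on 1 array, so differences between mice include the error of the array. In whole brain tissue, fewer cells of a type and less RNA per cell cannot be told apart.

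Egr2 varied most between mice, Egr4 and Egr1 less, and Egr3 hardly at all. Egr1 ranged from -0.476 through a median of -0.0484 to 0.228, with an SD of 0.128 (n = 292). Egr2 ranged from -0.718 through -0.103 to 0.624, with an SD of 0.223. Its 95th percentile lay 5.01-fold above its 5th percentile, and 99.4% of probes had a smaller SD. Egr4 ranged from -0.452 through -0.077 to 0.396, with an SD of 0.143. The span from the 5th to the 95th percentile was 2.53-fold for Egr1 and 2.8-fold for Egr4, and 96.5% and 97.6% of probes had a smaller SD.

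Egr3 ranged only from -0.0775 through -0.00929 to 0.0867, with an SD of 0.0247 against a median of 0.0495 over all probes. Only 3.41% of probes had a smaller SD, and its 5th to 95th percentile span was 1.21-fold. Signal intensities were not used here, so the signal behind this probe's ratios is unknown. Egr3 followed the median of all probes on the same array, with r = 0.713 and rho = 0.683 in the 151 mice numbered up to 212, called the early block below, and r = 0.455 and rho = 0.4 in the 141 mice numbered from 213, the late block (permutation p = 1e-05 for each, the smallest that 100000 resamples can give). Without the 2 mice of most extreme array median in each block, r was 0.678 and 0.405. With every array centred on its median and scaled to equal spread, Egr3 still had 3604 related probes in the same and 3387 in the opposite direction, by the rule given below, against 5301 and 3472 without this step. Its 12 nearest and most opposite genes had a smaller r of the 2 blocks between 0.594 and 0.682 and between -0.61 and -0.559 after this step, all still called.

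The mice at the ends of the range were largely shared by Egr1, Egr2 and Egr4. Mouse 267 was the lowest of all for Egr1 at -0.476 and for Egr4 at -0.452, and lay at -0.709 for Egr2, next to the lowest mouse, 262, at -0.718. Mouse 60 was the highest for Egr2 at 0.624 and for Egr4 at 0.396. Mouse 95 was the highest for Egr1 at 0.228 and lay at 0.407 for Egr2 and 0.269 for Egr4. An exception was mouse 202, which stood at 0.219 for Egr1, 0.128 for Egr4 and -0.101 for Egr2. Gaussian mixtures of up to 3 components were compared by the Bayesian information criterion, and 1 component fitted best for Egr2 and Egr4. For Egr1, 2 components fitted best over all mice and in the late block, 2.54 and 2.68 within-group SDs apart. For Egr3, 2 fitted best over all mice and in the early block, 2.605 and 2.73 SDs apart. No gap passed 3 within-group SDs, and the levels were treated as continuous.

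**Figure D1:**
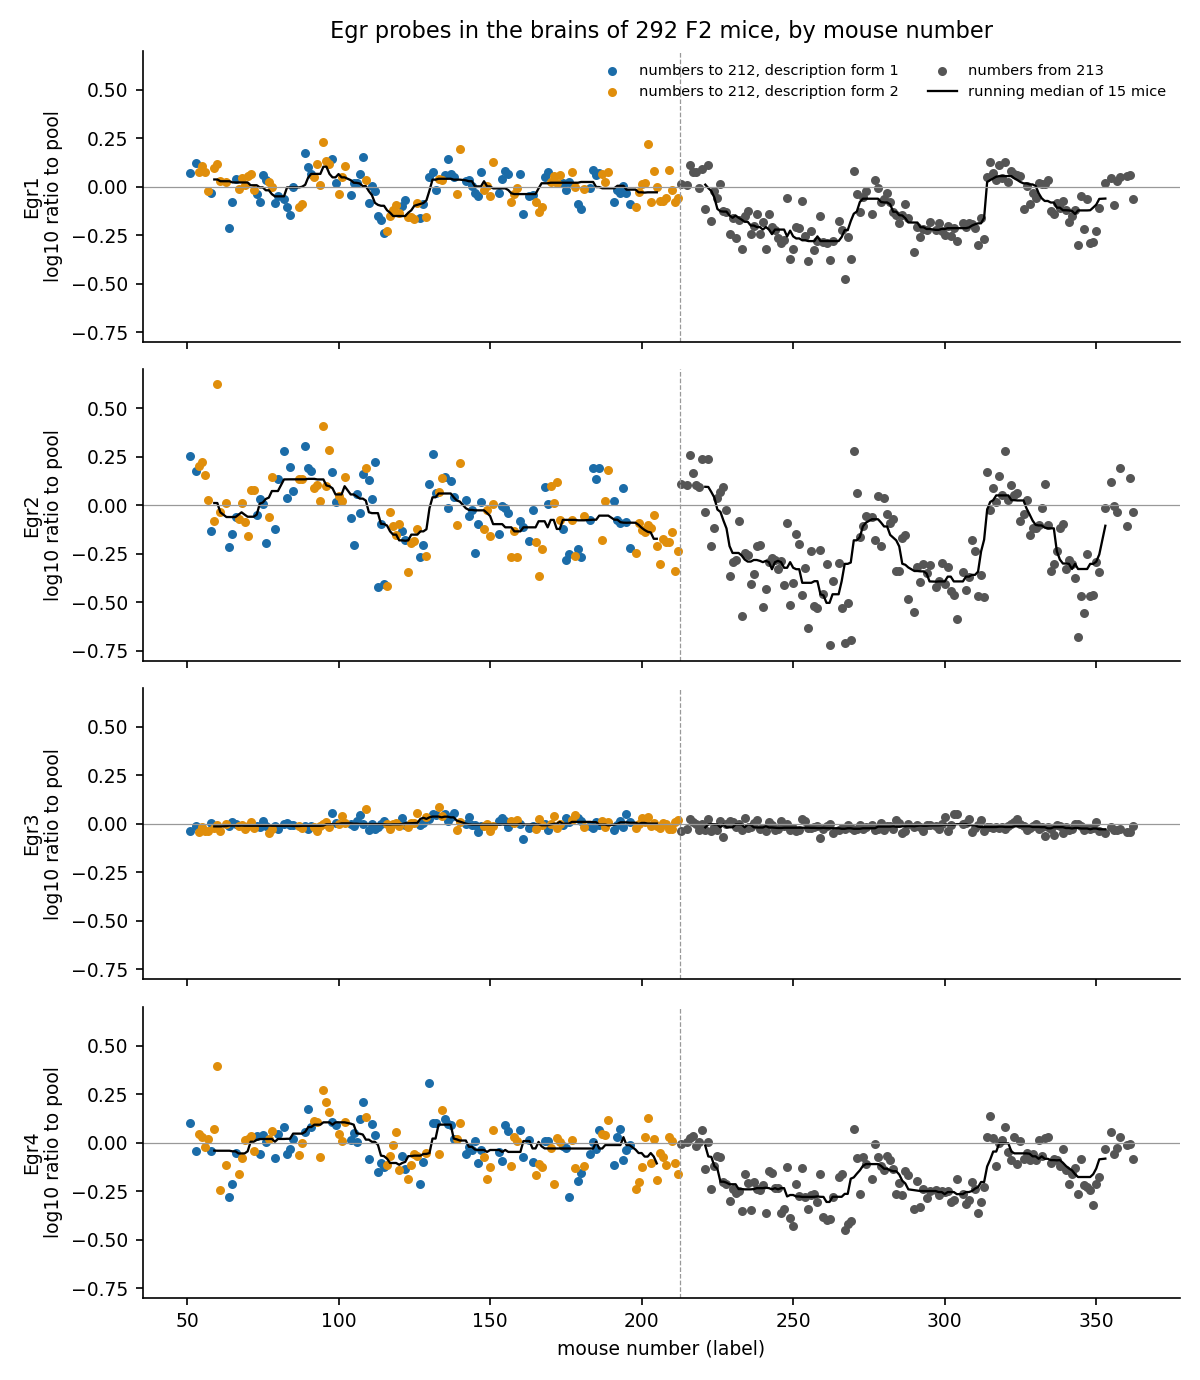
Log10 ratio to the pool (vertical axis, same scale in each panel) of the 4 Egr probes against mouse number (horizontal axis), 1 point per mouse; colours give the block of mouse numbers and the form of the description, lines the running median of 15 mice. Egr1, Egr2 and Egr4 rise and fall together along the mouse numbers and lie lower in most mice from 213 on, while Egr3 stays between -0.0775 and 0.0867.

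Levels of Egr1, Egr2 and Egr4 moved in waves along the mouse numbers. In runs of 20 numbers, the median of Egr2 was 0.135 in mice 82 to 100 (n = 18), -0.0406 in mice 101 to 120 (n = 19) and -0.182 in mice 201 to 212 (n = 12). It was 0.111 in mice 213 to 220 (n = 7), -0.21 in mice 221 to 240 (n = 20), -0.326 in mice 241 to 260 (n = 20), and -0.0998 in mice 321 to 340 (n = 20). Egr1 and Egr4 took the same course in the late block: their medians were 0.0755 and 0.00335 in mice 213 to 220, -0.262 and -0.274 in mice 241 to 260, and -0.0153 and -0.0772 in mice 321 to 340. Medians of Egr3 over these runs stayed between -0.0276 and 0.0287.

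This likeness of neighbours was measured as the mean squared difference between mice next to each other in number over 2 times the variance, a ratio near 1 for an order without pattern. In the late block it was 0.371 for Egr1, 0.388 for Egr2 and 0.363 for Egr4, against a median of 0.962 over all probes. Only 0.051%, 0.0637% and 0.0425% of probes had a lower ratio. In the early block it was 0.497 for Egr1, 0.53 for Egr2 and 0.656 for Egr4, against a median of 0.804, and 2.69%, 4.01% and 16.2% of probes lay lower. Egr3 stood at 0.738 in the early and 0.906 in the late block, where 32.2% and 32.1% of probes lay lower. Arc, an activity-induced gene whose protein acts at synapses, had ratios of 0.483 and 0.587 in these blocks. The labels do not say what the mouse number records, so date, litter, time of killing or hybridisation order cannot be told apart here. Tests and intervals given below treat the mice as independent. With neighbours this alike, standard errors and p-values for Egr1, Egr2 and Egr4 are too small, by an amount that was not estimated.

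Egr1, Egr2 and Egr4 were lower in the late block than in the early one. In the early block Egr1 ranged from -0.237 through 0.000765 to 0.228, and in the late block from -0.476 through -0.14 to 0.126. The difference of means was -0.125 ± 0.0131 (SE), 1.33-fold lower (limma adjusted p = 4.55e-18). For Egr2 the early block ran from -0.421 through -0.0482 to 0.624 and the late block from -0.718 through -0.237 to 0.281. Its mean was 1.5-fold lower, -0.177 ± 0.0238 (SE, limma adjusted p = 5.55e-12).

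Egr4 ran from -0.282 through -0.012 to 0.396 in the early block and from -0.452 through -0.177 to 0.135 in the late block, 1.42-fold lower, -0.152 ± 0.0141 (SE, limma adjusted p = 5.32e-22). Egr3 differed by -0.015 ± 0.00279 (SE), 1.04-fold (limma adjusted p = 4.76e-07). The blocks overlapped for all 4 genes: 32 late mice lay below every early mouse for Egr1, 28 for Egr2, 26 for Egr4 and 0 for Egr3. All 4 genes passed the test, but so did 66.7% of all probes (36.1% lower), so passing it sets no gene apart. In raw log10 units the size did differ from most probes: 0.544% of probes had a more negative difference than Egr1, 0.0849% than Egr2 and 0.246% than Egr4, against 31% for Egr3. Egr1, Egr2 and Egr4 also spread widely, with a smaller SD in 96.5%, 99.4% and 97.6% of probes. Differences relative to the SD were not ranked, so this does not set their shift apart from their spread. Mice, pool comparison and array processing of the blocks cannot be told apart.

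**Figure D2:**
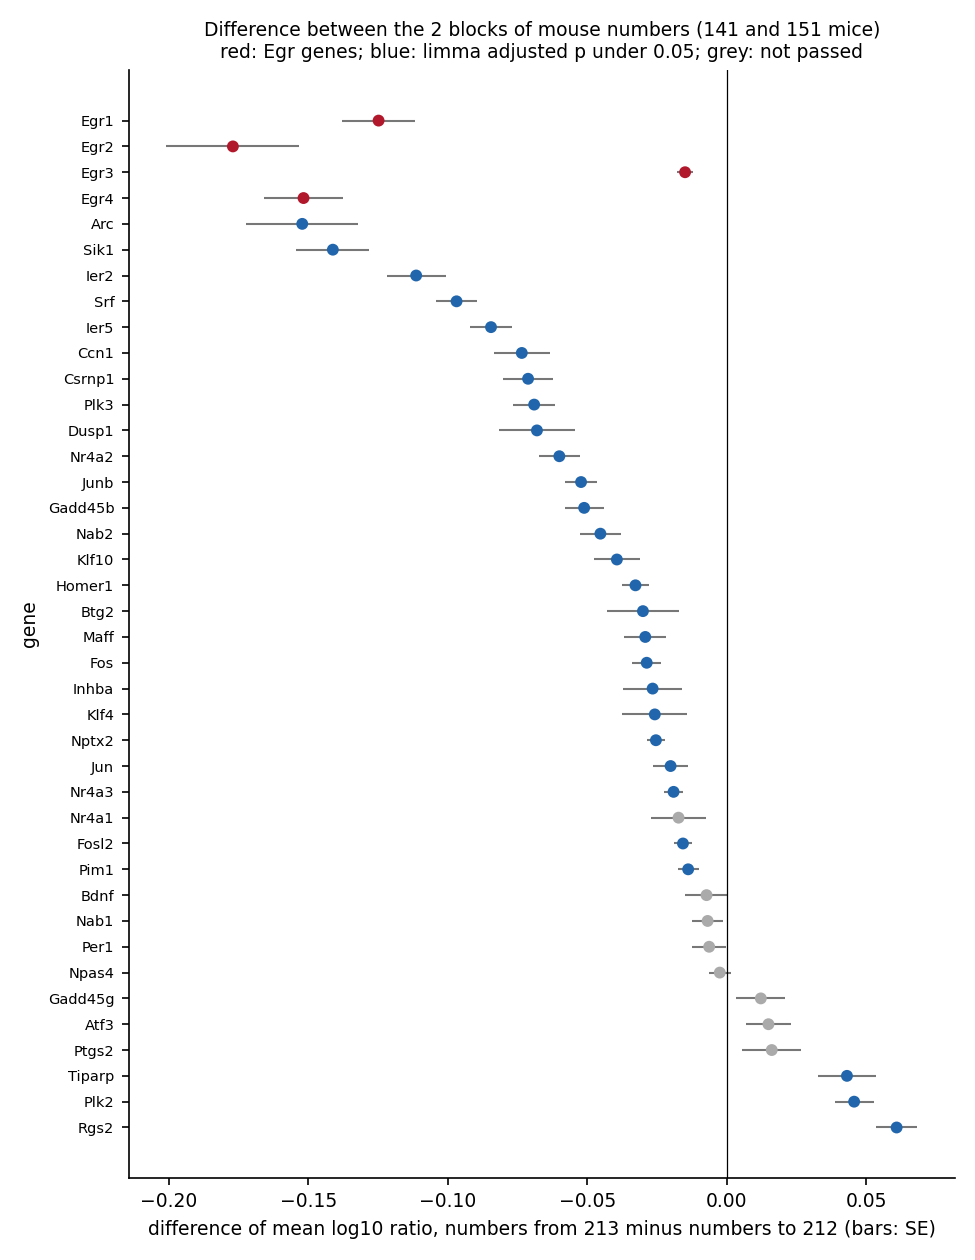
Difference of the mean log10 ratio between mice numbered from 213 and mice up to 212 (horizontal axis; bars are SE) for the Egr genes in red and, sorted, the 33 measured genes of the immediate early list with Nab1, Nab2 and Srf. Egr1, Egr2 and Egr4 lie between -0.177 and -0.125, near Arc at -0.152, whereas Egr3 lies at -0.015.

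Many other activity genes were lower as well. Of the 33 measured genes of an immediate early list, 23 were lower in the late block, 3 were higher and 7 did not pass, with a median difference of -0.0266 against -0.00313 over all named genes, of which 38.6% were lower and 29.7% higher. The difference was -0.152 for Arc (limma adjusted p = 2e-12), -0.141 for Sik1, a kinase that restrains CREB signalling, -0.111 for Ier2 and -0.097 for Srf, which is not on the list. Plk2, Tiparp and Rgs2 were the genes that were higher.

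Against the pool, all 4 genes were lower over the 292 mice, with a mean of -0.065 ± 0.00748 (SE) for Egr1, -0.118 ± 0.013 for Egr2, -0.0902 ± 0.00831 for Egr4 and -0.00691 ± 0.00146 for Egr3. Their limma adjusted p was 2.38e-15, 1.39e-16, 6.98e-22 and 9.38e-06, in a test that 68.4% of probes passed, 31.5% of all as lower. This rested on the late block, where the means were -0.13, -0.21, -0.169 and -0.0147 and 77.1% of probes passed (38.3% lower). In the early block no Egr gene passed (adjusted p = 0.873, 0.288, 0.436 and 0.977 for Egr1, Egr2, Egr4 and Egr3), where 1.06% of probes were called. With an unadjusted p under 0.05, 1 of the 4 would have passed. The highest value of the Y-linked gene Eif2s3y was 0.385 in the early and 0.123 in the late block. Whether the blocks were set against the same pool was not tested, so the means against it may not be comparable between blocks.

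Within the early block the mice carry 2 wordings of the sample description, 74 mice with form 1 and 77 with form 2. The Y-linked gene Eif2s3y lay above -0.5 in 1 of the 74 and in 76 of the 77, so the forms divided these mice nearly as this gene did. No Egr gene differed between the forms. Form 2 minus form 1 was 0.00616 ± 0.0144 (SE) for Egr1, -0.0248 ± 0.0279 for Egr2, -0.00353 ± 0.00421 for Egr3 and -0.0114 ± 0.018 for Egr4, with limma adjusted p from 0.983 to 0.989 and 1.07% of probes called. With an unadjusted p under 0.05, 0 of the 4 passed. Mice of the late block all had form 1, and 76 of 141 were above -0.5 for Eif2s3y.

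A straight line over mouse number is a coarse summary of such waves, and its slope differed between blocks for each member (limma adjusted p of the difference 0.0216 for Egr1, 0.0126 for Egr2, 0.0194 for Egr3 and 0.00027 for Egr4, with 40.6% of probes called). Per 100 numbers, Egr2 fell by 0.144 ± 0.0278 (SE) in the early block (limma adjusted p = 1.48e-05, with 37.7% of probes called) and had a slope of 0.00845 ± 0.0454 in the late block (adjusted p = 0.913, with 25.3% called). Egr4 fell by 0.0528 ± 0.019 in the early block (adjusted p = 0.0211) and rose by 0.0767 ± 0.0245 in the late block (adjusted p = 0.0133). Egr1 had a slope of -0.0147 ± 0.0156 in the early block (adjusted p = 0.469) and rose by 0.0641 ± 0.0253 in the late block (adjusted p = 0.0492). For Egr3 the slopes were 0.0109 ± 0.00446 (adjusted p = 0.0434) and -0.00613 ± 0.00427 (adjusted p = 0.298). With the first principal component of all probes removed, the early-block slope was 0.00114 for Egr3 and -0.0505 for Egr4, no longer called (adjusted p = 0.893 and 0.0526), and -0.0413 for Egr1, now called (0.0301); the difference of slopes was then -0.00501 for Egr3 and not called (0.617).

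Egr1, Egr2 and Egr4 moved together from mouse to mouse, and Egr3 did not move with them. All 6 pairs were computed in each block. In the early block Egr1 and Egr2 had r = 0.611 (95% interval by Fisher's z 0.5 to 0.702), rho = 0.591 and limma adjusted p = 4.43e-13, and in the late block r = 0.878 (0.834 to 0.911), rho = 0.858 and adjusted p = 3.9e-43. Egr1 and Egr4 had r = 0.629 (0.522 to 0.717) and 0.926 (0.899 to 0.947), with rho = 0.649 and 0.92 and adjusted p = 6.16e-14 and 2e-57. Egr2 and Egr4 had r = 0.64 (0.535 to 0.725) and 0.813 (0.748 to 0.862), with rho = 0.604 and 0.806 and adjusted p = 3.49e-15 and 3.86e-31.

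For these 3 pairs the permutation p of r was 1e-05 in each block. Without the 2 most outlying mice of each block the pairs had r from 0.58 to 0.629 in the early block and from 0.802 to 0.922 in the late block. The relation also held within each description form of the early block, with r from 0.588 to 0.673. Since the genes share waves along the mouse numbers, values were also centred on runs of 20 numbers. Then Egr1 and Egr2 had r = 0.63 and 0.858, Egr1 and Egr4 r = 0.659 and 0.895, and Egr2 and Egr4 r = 0.582 and 0.78, so mice of nearby numbers still differed together.

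Pairs with Egr3 had r from -0.121 to 0.111, and none was called in a block (limma adjusted p from 0.236 to 0.945). For Egr1 and Egr3 the 95% intervals ran from -0.0498 to 0.266 and from -0.177 to 0.153. Centring on runs of 20 numbers raised Egr1 with Egr3 in the early block to r = 0.242 (adjusted p = 0.00971). Pooling all mice without regard to block gave r = 0.183 for Egr1 and Egr3 and 0.17 for Egr3 and Egr4 (permutation p = 0.00161 and 0.00373), a relation that the blocks did not hold one by one.

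**Figure D3:**
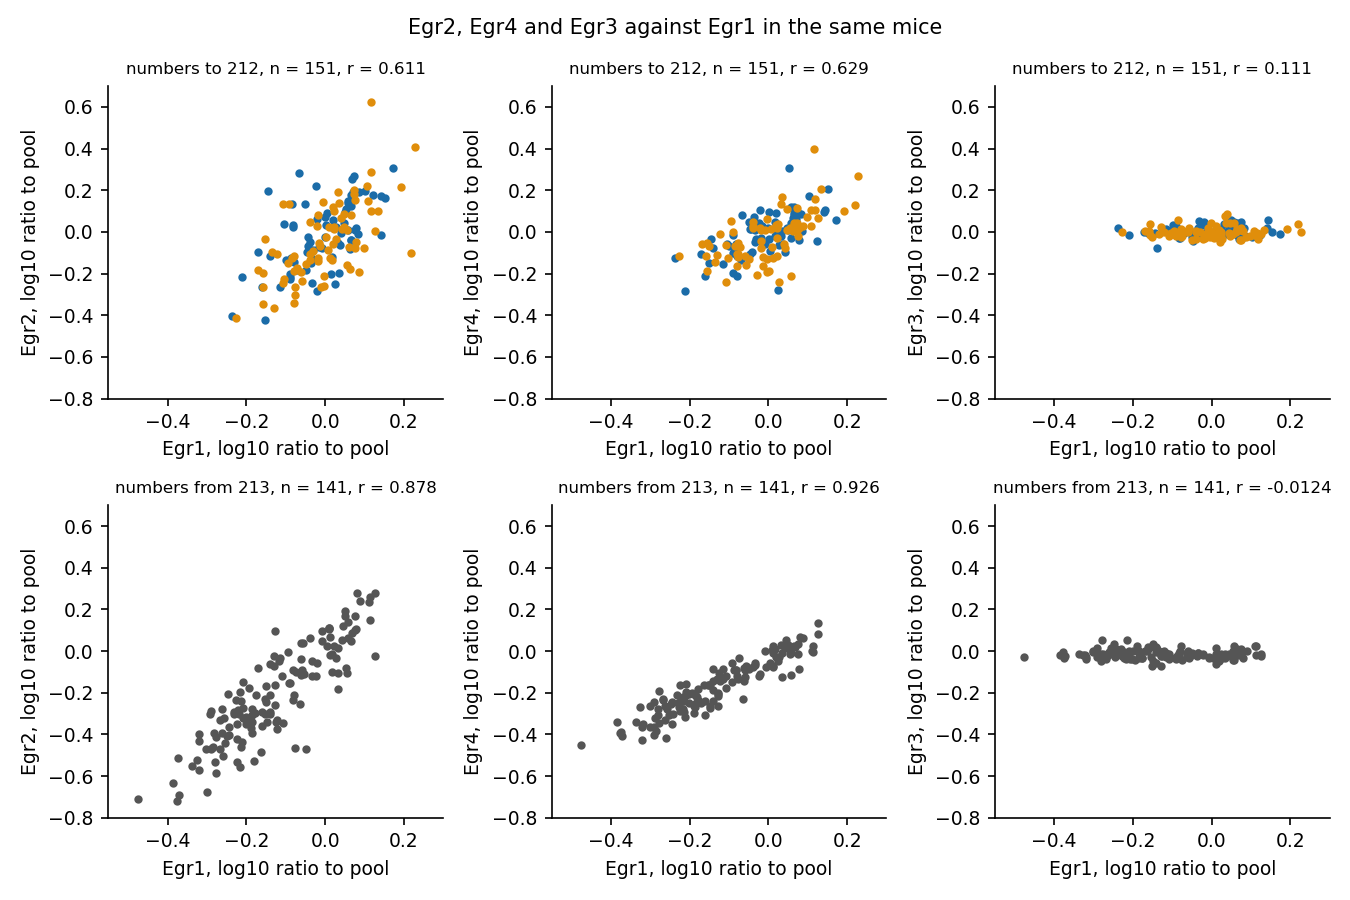
Egr2, Egr4 and Egr3 (vertical axes) against Egr1 (horizontal axes), as log10 ratios to the pool, with 1 point per mouse; the upper row holds mice numbered up to 212 (blue and orange for description forms 1 and 2) and the lower row mice from 213. With Egr1, r rises from 0.611 to 0.878 for Egr2 and from 0.629 to 0.926 for Egr4, and Egr3 lies flat.

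Slopes between members were steeper in the late block for some pairs. Per unit of Egr1, Egr2 changed by 1.19 ± 0.125 (SE) in the early block and 1.54 ± 0.0708 in the late block (limma interaction 0.357 ± 0.14, adjusted p = 0.0401, with 29.9% of probes called). Per unit of Egr4, Egr1 changed by 0.502 ± 0.0505 and 0.945 ± 0.0324 (interaction adjusted p = 8.73e-09, 17.6% called), and Egr2 by 0.993 ± 0.0967 and 1.46 ± 0.0877 (adjusted p = 0.00649). Per unit of Egr2, the change of Egr1 differed with adjusted p = 0.047, where 0.0127% of probes were called; this call was lost without the 2 most extreme mice per block (0.195), with ranks (0.15) and after centring on runs of 20 numbers (0.706). The slopes of Egr4 on Egr1 and on Egr2 were not called different (adjusted p = 0.243 and 0.859). The interaction of Egr2 on Egr1 was not past the threshold after array scaling, with ranks or without the first principal component (adjusted p = 0.075, 0.0587 and 0.924).

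Across all probes, the members differed in how much of the transcriptome went with them. A probe was called related when limma's adjusted p was under 0.05 in each block with 1 sign. Egr2 had 225 probes in the same direction and 80 in the opposite one, 1.3% of those tested. For Egr1 there were 565 and 655 (5.18%), for Egr4 1460 and 1246 (11.5%), and for Egr3 5301 and 3472 (37.3%). The few related probes of Egr2 and the many of Egr3 stand beside their SDs of 0.223 and 0.0247. After centring on runs of 20 numbers, Egr2 had 112 and 43, Egr1 368 and 364, and Egr4 911 and 638; array scaling gave 134 in the same direction for Egr2 and 945 and 626 for Egr4. Of the 225 probes with Egr2 in the same direction, 106 (47.1%) were also with Egr4, which is 7.26% of the latter's 1460, and 2 (0.889%) were with Egr3, 0.0377% of its 5301. Egr1 shared 318 of its 565 (56.3%) with Egr4, 21.8% of the latter's, and 232 (41.1%) with Egr3, 4.38% of the latter's. Egr4 shared 312 (21.4%) with Egr3, 5.89% of the latter's.

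Activity genes followed Egr1, Egr2 and Egr4. In the immediate early list, 17 of 33 measured genes were related in the same direction to Egr1, 19 to Egr2 and 18 to Egr4, and 0 in the opposite direction by limma; with unadjusted p under 0.05 in each block these counts were 20, 23 and 19, and again 0. Of all named genes, 3.06%, 1.18% and 7.71% were related in the same and 2.85%, 0.388% and 4.63% in the opposite direction. For 13 of the 33 the relation held with all of Egr1, Egr2 and Egr4, and for 23 with at least 1 of them. With Egr3 it was 5 in the same and 3 in the opposite direction, where 23.8% and 15% of named genes were called. The list's median r with Egr1 was 0.229 in the early and 0.439 in the late block, with Egr2 0.288 and 0.39, with Egr4 0.289 and 0.479, and with Egr3 0.0755 and -0.0155. Jun, Atf3, Maff, Nr4a3, Npas4, Per1, Pim1, Fosl2, Tiparp and Plk2 were related to none of Egr1, Egr2 and Egr4.

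**Figure D4:**
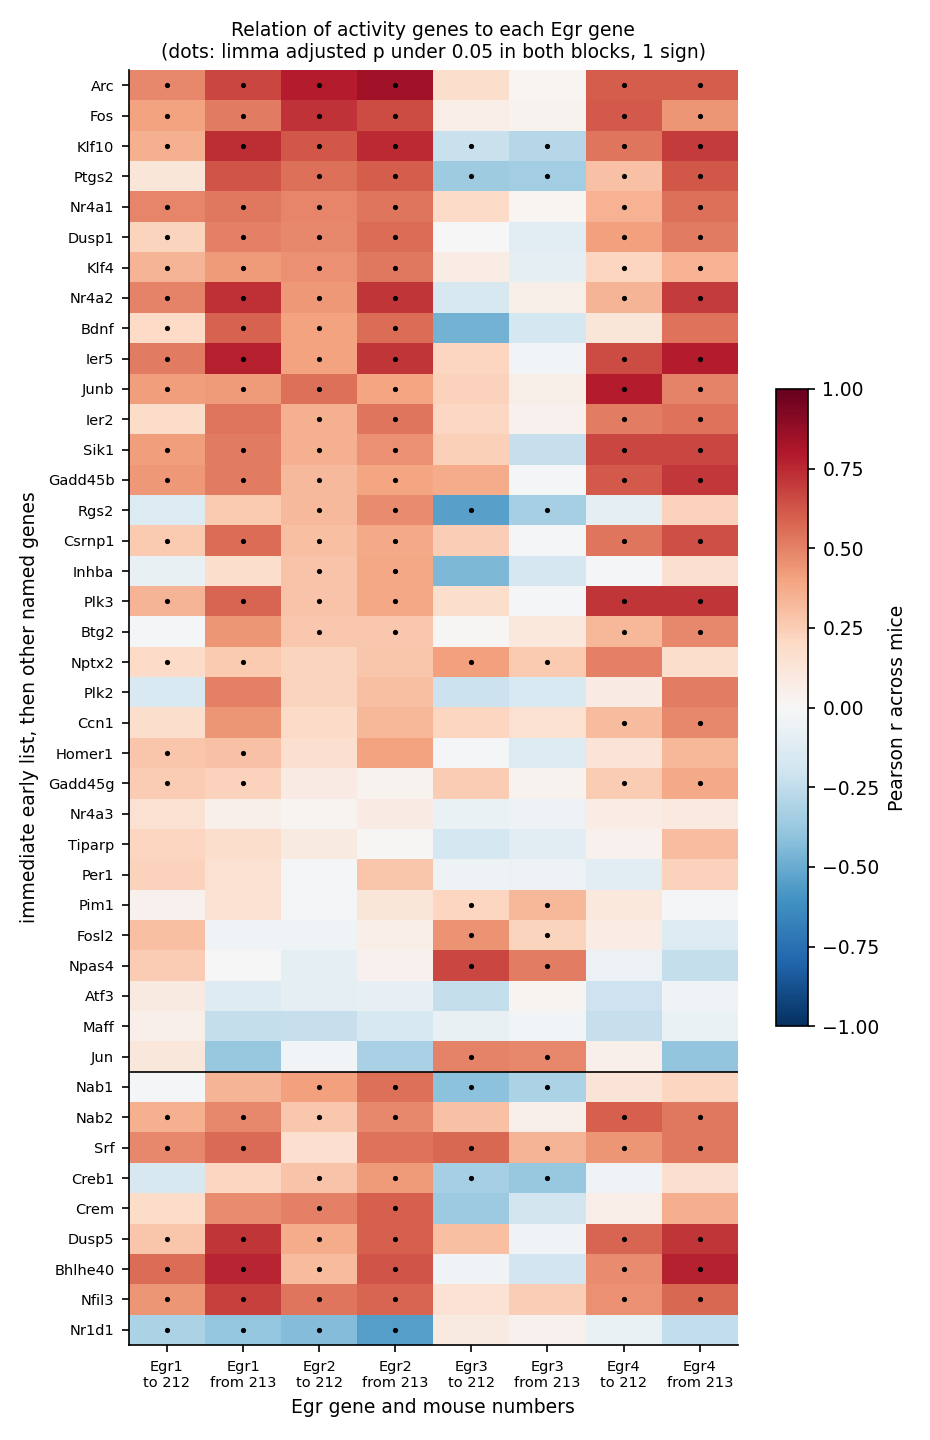
Pearson r across mice (colour, from -1 to 1) of the 33 measured immediate early genes and of 9 other named genes (rows, below the line) with each Egr gene in mice up to 212 and from 213 (columns); dots mark relations with limma adjusted p under 0.05 in each block and 1 sign. Red columns for Egr1, Egr2 and Egr4 contrast with mixed colours for Egr3; Arc with Egr2 is the strongest, at r = 0.784 and 0.842.

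Egr2 was most like Arc, the synaptic plasticity gene (r = 0.784 in the early and 0.842 in the late block, adjusted p = 6.9e-29 and 8.7e-36), and Fos, a subunit of AP-1 (0.725 and 0.655). Arc itself ranged from -0.383 through -0.0403 to 0.307 in the early block and from -0.614 through -0.176 to 0.285 in the late block, a span like that of Egr2. Next came Klf10, a zinc finger factor induced by TGF-beta (0.623 and 0.749), Ptgs2, the inducible cyclooxygenase (0.55 and 0.605), Nfil3 (0.538 and 0.586), Crem, a CREB relative (0.505 and 0.596), Nr4a1, an orphan nuclear receptor (0.487 and 0.537) and Dusp1, a phosphatase of MAP kinases (0.478 and 0.56). The most opposite genes were Plin4, a lipid droplet protein (-0.454 and -0.568), Nr1d1, the clock repressor Rev-erb alpha (-0.436 and -0.551), Itgad and Nrde2. Plin4 and Itgad lost their calls after centring on runs of 20 numbers (adjusted p = 0.245 and 0.761).

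The genes nearest to Egr4 overlapped with those of Egr2 in Arc, and with those of Egr1 in Ier5 and Arc. They were Plk3, a stress-activated polo-like kinase (0.712 and 0.718), Sik1 (0.669 and 0.668), Ier5 (0.65 and 0.784), Socs1, a suppressor of cytokine signalling (0.656 and 0.633), Rtn4rl2, a Nogo receptor relative (0.639 and 0.614), Gadd45b, a stress sensor linked to DNA demethylation (0.61 and 0.708), Arc (0.608 and 0.609) and Dusp5 (0.584 and 0.718). Helb, a DNA helicase, was the most opposite (-0.53 and -0.719), followed by Tmlhe, Cradd and Gsta3.

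For Egr1 the nearest were Bhlhe40, a transcriptional repressor tied to the clock (0.556 and 0.763), Efnb1, an ephrin ligand (0.528 and 0.539), Ier5 (0.522 and 0.774), Nr2e1, a nuclear receptor of neural stem cells (0.506 and 0.514), Nr4a2 (0.496 and 0.73), Nr4a1 (0.485 and 0.524), Srf (0.483 and 0.567) and Arc (0.48 and 0.666). The opposite end held Gsta3, a glutathione transferase (-0.549 and -0.594), Lrrcc1, and the DNA repair genes Blm and Brca2.

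Against the mean of the 4 standardised members, Arc (0.721 and 0.721), Ier5 (0.627 and 0.759) and Srf (0.584 and 0.668) came first, followed by Trpv2, Fos, Nfil3, Gadd45b, Dusp5, Adamts8, Nr4a1, Plk3, Efnb1, Nab2, Socs1 and Klf16. Of these 15 genes, 12 had a promoter window, which held a CArG box in 2 (Srf and Dusp5, printed above) and CGTCA in 7. In the immediate early list, 29 genes had a window, of which 20 held CGTCA and 0 a CArG box. Of all genes with a window, 19.8% held CGTCA and 1.62% a CArG box, so 0 of 29 is near the latter share. Sites beyond 250 bases or with other letters were not searched. The most opposite to the mean were Lrrcc1 (-0.516 and -0.589), Zfp810, Sbf2, Brca2, Fam214a, Oas1c, Bbs4 and Cyp2j6.

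Genes near Egr3 were of other kinds: Acads and Mtx1 of mitochondria, Sema6b, the neuronal enolase Eno2, Zbtb48, Zdhhc12, Mrpl12 and Edf1, with r from 0.68 to 0.784 over the blocks. The cohesin subunit Stag2, Ascc3, Sec63 and Marchf7 were the most opposite, with r from -0.738 to -0.668. No gene among the 8 nearest to Egr3 was among those of another member. The overlap to be had between such short lists was not computed, so this is no result about Egr3. The nearest and most opposite genes were chosen by these values, which are given as a description.

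Each probe was also fitted on all 4 members at once. With the other members held constant, 8 of the 33 list genes rose with Egr2: Arc, Fos, Klf10, Klf4, Nr4a1, Dusp1, Rgs2 and Inhba, where 4.34% of probes were called. Another 9 rose with Egr4, where 12.3% of probes were called: Plk3, Sik1, Ier5, Ier2, Junb, Gadd45b, Csrnp1, Btg2 and Ccn1. These sets share no gene. Egr2 and Egr4 had r = 0.64 and 0.813 with each other, so their joint slopes compete and few genes can rise with both. The share of all probes that did so is not given here, so the lack of overlap is no result about these genes. With Egr3, 7 list genes rose and 4 fell, where 20.2% and 14% of probes were called, and Arc, Ccn1, Klf10 and Rgs2 of the sets above were among these 11: Arc and Ccn1 rose (adjusted p = 6.8e-05 and 0.00136 for Arc, 0.027 and 0.027 for Ccn1), and Klf10 and Rgs2 fell. For Arc the adjusted p on Egr2 was 2.19e-18 in the early and 1.42e-22 in the late block, and on Egr4 0.0176 and 0.741. For Plk3 on Egr4 it was 3.19e-21 and 1e-13, and its joint slope on Egr2 was negative (0.00685 and 0.000168). For Junb, an AP-1 subunit, it was 9.97e-20 and 0.000692 on Egr4. With Egr1 1 list gene passed in the same direction, Npas4 (adjusted p = 2.7e-08 and 1.21e-05), where 10.6% of probes were called. Without the first principal component 0 list genes passed in that direction, and the joint-fit probes of Egr1 went from 2484 to 314. Slopes given the other members are differences between genes that go together closely, and that of Npas4 with Egr1 stands beside r = 0.25 and -0.00149.

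Both corepressors were related to Egr2, and Nab2 to Egr1 and Egr4 as well. Nab1 was related to Egr2 (r = 0.409 and 0.547, adjusted p = 0.000109 and 8.67e-10) and kept that relation in the joint fit (2.54e-08 and 6.87e-10). With Egr1 it had r = -0.00949 and 0.336 and with Egr4 0.132 and 0.214, and neither passed in each block. With Egr3 it went the opposite way (-0.409 and -0.317, adjusted p = 6.68e-07 and 0.000534), in the joint fit too. Nab2, an Egr target as well as a corepressor, was related to Egr4 (0.601 and 0.53), Egr1 (0.354 and 0.481) and Egr2 (0.266 and 0.482), and in the joint fit to Egr4 (3.03e-11 and 0.00129). Levels of Nab1 ran from -0.181 through 0.00505 to 0.131 in the early and from -0.138 through 0.00263 to 0.0696 in the late block. Nab2 ran from -0.232 through -0.00205 to 0.19 and from -0.252 through -0.047 to 0.09. After centring on runs of 20 numbers, Nab1 with Egr2 just missed the threshold in the early block (r = 0.273 and 0.496, adjusted p = 0.0522 and 1.51e-07), and Nab2 with Egr4 passed (0.608 and 0.505). The Egr sites printed above lie upstream of Nab1, not in the windows of Egr2 and Egr4. The window of Nab2 held none of the searched letters. Among the genes nearest to each member or to the mean of the 4, 0 of those with a window held the Egr site. Of all genes with a window, 0.622% held it, so 0 is near that share.

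Of 12 measured genes of the ERK, SRF and CREB pathway, 2 were related to Egr1 (Srf and Map2k1, an ERK kinase), 2 to Egr2 (Creb1 and Crem) and 1 to Egr4 (Srf) in the same direction, where 3.06%, 1.18% and 7.71% of all named genes were. Srf was related to Egr1 and to Egr4 (0.438 and 0.528), and not in the early block to Egr2 (0.168 and 0.544, adjusted p = 0.331 and 1.03e-09). It was also related to Egr3 (0.575 and 0.339). Creb1 was related to Egr2 (0.285 and 0.423) and Crem likewise, in the joint fit too. Among 7 measured genes of ERK feedback, Dusp5 was related to Egr1 (0.281 and 0.716), Egr2 (0.374 and 0.596) and Egr4.

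Members of the clock list followed in part: of 15 measured, 4 were related to Egr1, 3 to Egr2 and 5 to Egr4 in the same direction, and 1 to each in the opposite direction, against the shares of all named genes given for the immediate early list. Centred on runs of 20 numbers, the counts were 3 and 1 for Egr1, 3 and 1 for Egr2, and 3 and 0 for Egr4. Shares of all named genes after this centring are not given here. Per2, a core clock repressor, was related to Egr1 (0.447 and 0.642) and Egr4 (0.34 and 0.68), and Nfil3 to Egr1 (0.438 and 0.684), Egr2 and Egr4 (0.455 and 0.571). The labels give no time of day for the killing. Of 11 measured glucocorticoid genes, 3 were related to Egr1 and 0 to Egr2 and Egr4 in the same direction by limma (0 of each also with unadjusted p), beside 3.06%, 1.18% and 7.71% of all named genes. In the opposite direction 2 were related to Egr2, where 0.388% of named genes were (Fkbp5, -0.274 and -0.303, adjusted p = 0.0398 and 0.00484, and Sult1a1), and 1 to Egr4 (Sult1a1). After centring on runs of 20 numbers, or without the 2 most extreme mice of each block, 0 were opposite to Egr2. With that centring 3 were related to Egr4 in the same direction. Tsc22d3 was related to none of the 4.

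Lists of neuronal Egr targets and of Schwann cell myelination gave mixed counts. Of 9 measured neuronal targets, 3 were related to Egr1, 2 to Egr2 and 3 to Egr4 in the same direction, Arc and Nab2 among them. Of all named genes, 3.06%, 1.18% and 7.71% were. The Schwann cell list had 8 measured genes, among them the transcription factors Sox10, Pou3f1 and Pou3f2. Of these 8, 0 were related to Egr2 in either direction by limma, and 0 with unadjusted p under 0.05 in each block. Of all named genes, 1.18% and 0.388% were related to Egr2 in the same and the opposite direction. The tissue was brain, not peripheral nerve. Bdnf, the neurotrophin, was related to Egr1 (0.198 and 0.59) and Egr2 (0.402 and 0.56), and Homer1, a postsynaptic scaffold, to Egr1 (0.28 and 0.293). Npas4, a neuron-specific activity gene, was not called with Egr1, Egr2 or Egr4 and had r = 0.667 and 0.512 with Egr3. Its own range was small, from -0.0691 through -0.00315 to 0.123 in the early block.

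Of 124 measured markers of cell types and brain regions, 4 were related in the same and 2 in the opposite direction to Egr1, 3 and 0 to Egr2, and 8 and 4 to Egr4. Of all named genes, 3.06%, 1.18% and 7.71% were related in the same and 2.85%, 0.388% and 4.63% in the opposite direction. Egr3 had 36 and 15, where 23.8% and 15% of named genes were related. Centred on runs of 20 numbers, the counts were 2 and 0 for Egr1, 3 and 1 for Egr4, and 36 and 16 for Egr3. For Egr2 it was then 1 in the same direction. Shares of all named genes after this centring are not given here. Neuron markers were related to Egr1 in 0 of 8 in the same and 2 in the opposite direction, and to Egr2 in 0 of 8 either way by limma, also with unadjusted p. With Egr4 the counts were 0 and 2 (1 and 2 with unadjusted p), and with Egr3 2 and 2 (2 and 3 with unadjusted p).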

How the data were processed

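Brain RNA of 292 mice was hybridised to 2-colour arrays, 1 array per mouse, against a pool described as holding all mice. The authors deposited a table of normalized log10 ratios, 1 column per mouse; how they corrected background, normalized and flagged spots, the base of the log, the direction of the ratio and the build are not stated in the sources used. Signal intensities were not used. Array medians lay between -0.0073 and 0.0133, so ratios were used as deposited.

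Of 23574 probes, 23549 with at most 5% missing values were kept, and the mean of the probe stood in for 252 missing values; 690 values lay at the limits of the table. Genes were named from the platform annotation, which can be old: 13647 kept probes had 1 gene, 48 several and 9854 none, and 12645 matched a RefSeq gene by identifier. Where a gene had several probes, that of largest SD within blocks stood for it. Mice were taken as 1 group of separate animals, and precision rests on their number, since no depth applies to arrays. The fits treat the mice as independent, although mice near in number were alike in Egr1, Egr2 and Egr4.

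Means, differences between blocks and description forms, trends, slopes on each Egr gene and interactions were fitted over all probes with limma 3.58.1 (lmFit, eBayes) run under R 4.3.3; p-values were adjusted by Benjamini and Hochberg's method across the whole array, with a threshold of 0.05. Correlations had 2-sided permutation p from 100000 resamples, and mixtures were fitted with mclust 6.1.1. In the joint fit each probe was fitted on the 4 standardised members together. The slopes on Egr1 and the block difference were also fitted on simulated data, with every probe but the members shuffled over mice within blocks. Shuffling removes the likeness of neighbouring mice in those probes, so its effect on the p-values was not covered. Named genes were the members, for each member the 8 genes with the largest smaller-of-blocks r and the 4 most opposite, for the mean of the members the 15 most like and 8 most opposite, a short set from the lists, and per list the 2 highest and 1 lowest; other genes are named as members of a count of the lists, chosen after their values were seen. Members, lists and tests were chosen with earlier results of these data known. Alternatives were array scaling, removal of the first principal component of all probes within blocks (18.27% and 10.53% of variance), probes without missing values, array weights, centring on description form, leaving out the 2 most extreme mice, ranks and pooling. Centring on runs of 20 mouse numbers, the difference of trends and the alternatives for interactions were added after seeing the data; centring this way leaves the p-values slightly too small. Promoter letters are from RefSeq sequences of build GRCm38.p6.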

Additional observations from a re-analysis of the deposited data

Results flagged for a closer look

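The relation between members differed between the early and the late block of mouse numbers, as tested by an interaction over all probes. The slope of Egr2 on Egr1 was 0.357 higher in the late block, that of Egr1 on Egr2 0.184 higher, that of Egr1 on Egr4 0.442 higher and that of Egr2 on Egr4 0.465 higher. Late-block mice also spread more widely, with an SD of 0.133 against 0.0892 for Egr1 and 0.234 against 0.173 for Egr2; the part of this spread in the slopes was not tested.

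The trend over mouse number differed between the blocks too. Late minus early, per 100 numbers, it differed by 0.0787 for Egr1, by 0.153 for Egr2, by -0.017 for Egr3 and by 0.129 for Egr4. The difference for Egr3 was -0.00501 and not called once the first principal component of all probes was removed.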

How the results depend on the processing

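The means against the pool, the differences between blocks and forms and the spread kept direction and side of the threshold under every alternative run for them, and so did the pairs of Egr1, Egr2 and Egr4. The 12 nearest and most opposite relations of each member kept both in 286 values under alternatives and lost their call in 2; among other named relations, rerun only where the text says so, Nab1 with Egr2 lost its call after centring on runs of 20 mouse numbers (adjusted p = 0.0522). Another probe per member could not be tried, since each has 1 probe. No paired analysis was possible because the mice form 1 group. Ratios without intensities leave the signal over background unknown, which limits what can be said of the flat Egr3 probe.

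Removing the first principal component within blocks gave early-block trends of -0.0413 for Egr1 (now past the threshold), 0.00114 for Egr3 and -0.0505 for Egr4 (no longer past it), turned Egr1 with Egr3 in the early block to r = -0.0703 and Egr2 with Egr3 to 0.0245, and gave interactions of 0.0469 for Egr2 on Egr1, 0.147 for Egr1 on Egr2 and 0.0116 for Egr3 on Egr1. Related probes became 372 in the same and 231 in the opposite direction for Egr1 and 2134 opposite for Egr3. In the joint fit it left 314 and 201 probes with Egr1, 1961 opposite with Egr3 and 1896 in the same direction with Egr4; of the immediate early list it left 0 in the same direction with Egr1, 0 opposite with Egr2, 4 and 2 with Egr3 and 2 opposite with Egr4.

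Array scaling gave 134 probes in the same direction with Egr2, 945 and 626 with Egr4, 1629 in the joint fit with Egr1, an interaction of 0.336 for Egr2 on Egr1, and of the list 2 with Egr3, 4 with Egr3 in the joint fit and 0 opposite with Egr1 there. Pooling all mice gave r = 0.183 for Egr1 with Egr3, 0.0479 for Egr2 with Egr3 and 0.17 for Egr3 with Egr4, against the sign in at least 1 block for each. With ranks the interactions were 0.34 for Egr2 on Egr1 and 0.175 for Egr1 on Egr2; the latter was 0.182 after centring on form and also without the 2 most extreme mice per block, which left 3 list genes with Egr3 in the joint fit.

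Centring on runs of 20 mouse numbers, added after seeing the data, gave 368 and 364 probes with Egr1, 112 and 43 with Egr2 and 911 and 638 with Egr4, 3 and 5 list genes with Egr3, 0 opposite with Egr1 in the joint fit, r = 0.242 for Egr1 with Egr3 and 0.0652 for Egr2 with Egr3 in the early block, and interactions of -0.0702 for Egr3 on Egr1, 0.0926 for Egr1 on Egr2 and -0.0046 for Egr4 on Egr2. The causes of these changes were not tested.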
